A study of Mus musculus with 21 samples.

Results

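A set of 8 genes that respond to glucocorticoid hormones was followed in mouse liver after titanium dioxide (TiO2) nanoparticles had been placed in the airways. They were Nr3c1, Fkbp5, Zbtb16, Tsc22d3, Klf9, Sgk1, Ddit4 and Errfi1, followed as a readout of stress hormone action in the liver. A gene was measured through the array probes whose RefSeq accession maps to its symbol. By this rule 7 of the 8 genes had probes, 13 probes in all among the 41174 of the array, and 12 of the 13 passed the filter on dim probes. Zbtb16, a transcription factor that glucocorticoids induce strongly in many tissues, matched 0 probes, and its level was not analysed here. The other 7 genes were all among the 17640 features tested, each through the probe whose liver signal was on average brightest.

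The data came from 21 arrays, each with liver RNA of 1 female C57BL/6 mouse labelled red and a pool of mouse RNA, the universal reference shared by all arrays, labelled green. A single instillation of 162 µg nano-TiO2 into the trachea was given to 12 mice, of which 6 were killed at day 1 and 6 at day 28, and vehicle alone to 9 mice, of which 5 were killed at day 1 and 4 at day 28. The vehicle was saline with cell-free lung lavage fluid from untreated mice, and the particles were suspended in the same liquid. Mice were 5 to 7 weeks old on purchase and were kept for 1 to 3 weeks before the experiment. All groups went through the instillation under anaesthesia and were killed under anaesthesia, and the sources used here do not give the hour of killing. Levels are log2 ratios of liver to reference RNA, so a difference of 1 is a doubling, and levels of different probes are not set against each other.

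Glucocorticoids are released by the adrenal gland in stress and in the daily rhythm, and they act through the glucocorticoid receptor. The receptor waits in the cytoplasm in a complex of chaperones, enters the nucleus once the hormone binds, and raises or lowers transcription at its target genes. In liver this action supports glucose production between meals and works together with cytokines in the acute phase response. In bulk tissue, fewer cells of a type and less RNA per cell cannot be told apart.

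Promoters of these genes were read for the glucocorticoid response element, the pair of hexamers that a receptor dimer binds. The element was searched as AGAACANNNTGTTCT, which reads the same on both strands, and its single hexamer as TGTTCT on either strand, so that each full element also holds hexamers. Windows ran from 250 bases before to 50 bases after each annotated start (RefSeq sequences, build GRCm38.p6). Of 32851 windows of all genes, 3 (0.00913%) held the full element and 6233 (19%) a hexamer. The table matched 6 of the 8 genes, namely Errfi1, Ddit4, Sgk1, Tsc22d3, Fkbp5 and Klf9, with 14 windows, of which 1 held the full element and 4 a hexamer. The full element lay in 1 of the 6 windows of Sgk1, and a hexamer in 1 of the 3 windows of Tsc22d3. These windows are shown for the letters they hold, together with a window of Errfi1, the gene with the largest difference at day 1, which held neither. After the Errfi1 window had been read, all windows were also searched for the cAMP response element TGACGTCA, which reads the same on both strands. It was found in 588 of all windows (1.79%). The Errfi1 window shown is the 1 of its 2 windows that held this element, and no other window of these genes did. Capitals mark these elements, and each line gives the 250 bases before the start.
Sgk1: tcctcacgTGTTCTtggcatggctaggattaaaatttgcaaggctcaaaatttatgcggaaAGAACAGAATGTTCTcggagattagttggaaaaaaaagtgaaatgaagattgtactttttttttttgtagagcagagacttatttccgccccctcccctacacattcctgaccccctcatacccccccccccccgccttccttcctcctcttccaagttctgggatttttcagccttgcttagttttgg
Tsc22d3: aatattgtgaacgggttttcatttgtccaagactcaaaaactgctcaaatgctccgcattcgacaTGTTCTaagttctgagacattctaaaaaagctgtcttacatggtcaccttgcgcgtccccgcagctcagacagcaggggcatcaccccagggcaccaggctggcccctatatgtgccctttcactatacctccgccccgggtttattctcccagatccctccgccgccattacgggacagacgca
Errfi1: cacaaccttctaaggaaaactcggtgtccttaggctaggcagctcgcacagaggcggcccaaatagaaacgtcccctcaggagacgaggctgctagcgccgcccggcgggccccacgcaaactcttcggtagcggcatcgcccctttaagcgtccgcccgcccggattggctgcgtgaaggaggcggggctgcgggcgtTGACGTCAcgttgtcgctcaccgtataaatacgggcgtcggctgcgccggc
The Sgk1 window lies at chr10:21993640-21993889 on the plus strand, with the full element between 189 and 175 bases before the start. The Tsc22d3 window lies at chrX:140600523-140600772 on the minus strand, and its hexamer begins 185 bases before the start. The Errfi1 window lies at chr4:150854820-150855069 on the plus strand, with the cAMP response element beginning 51 bases before the start. A match describes the letters of a window, and a window without one says nothing of elements elsewhere.

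Every sample is labelled as liver, although the protocol for RNA extraction speaks of lung. All 11 hepatocyte markers on the array were well above background on every array, and the median of their log2 ratios lay between 5.52 and 7.12. Of 10 lung markers, 2 to 8 were above background per array. Sftpd passed this mark on 21 of 21 arrays, and Napsa, Slc34a2, Scgb1a1 and Lamp3 on 13, 16, 17 and 20, whereas the surfactant genes Sftpa1, Sftpb and Sftpc were so on 4, 2 and 2 arrays and Ager, a gene of alveolar type 1 cells, on 0. Each of 10 Kupffer cell and macrophage markers was above background on every array, and of 9 neutrophil markers 1 to 6 were so per array. S100a9 was above background on 21 arrays, Csf3r on 12, S100a8 and Mpo on 9 each and Cxcr2 on 1, and Elane, Ngp and Camp on 0. Liver probes well above background numbered 20879 to 26616 per array on scan day 2, whereas scan day 1 gave 15216 to 16903 and scan day 3 gave 12985 to 16755. All 4 groups had arrays on each scan day. The vehicle group of day 1 had 1 mouse on scan day 1, and that of day 28 had 1 mouse on scan day 1 and 1 on scan day 3. Differences within those scan days rest on that 1 vehicle mouse.

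At day 1 all 7 measured genes had a higher mean in TiO2 livers than in vehicle livers, with differences of 0.03 to 0.99 and a median of 0.50. Over all features the median difference was -0.0064, and 8430 of 17640 were higher. Errfi1, Ddit4 and Sgk1 differed most, and Nr3c1, which encodes the receptor itself, differed least. In limma, with Benjamini-Hochberg adjustment over all features, 0 of 7 genes passed an adjusted p of 0.05, as did 0 of 17640 features (0%). At an unadjusted p under 0.05 there were 2 of 7 genes, Errfi1 and Sgk1, both higher, against 1.72% of all features in either direction, 0.986% higher and 0.737% lower. In all 7 genes the TiO2 and vehicle mice overlapped, and 0.108% of features had groups that did not. The genes were chosen with results of these data known, so these shares describe the genes and test nothing about them.

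**Figure D1:**
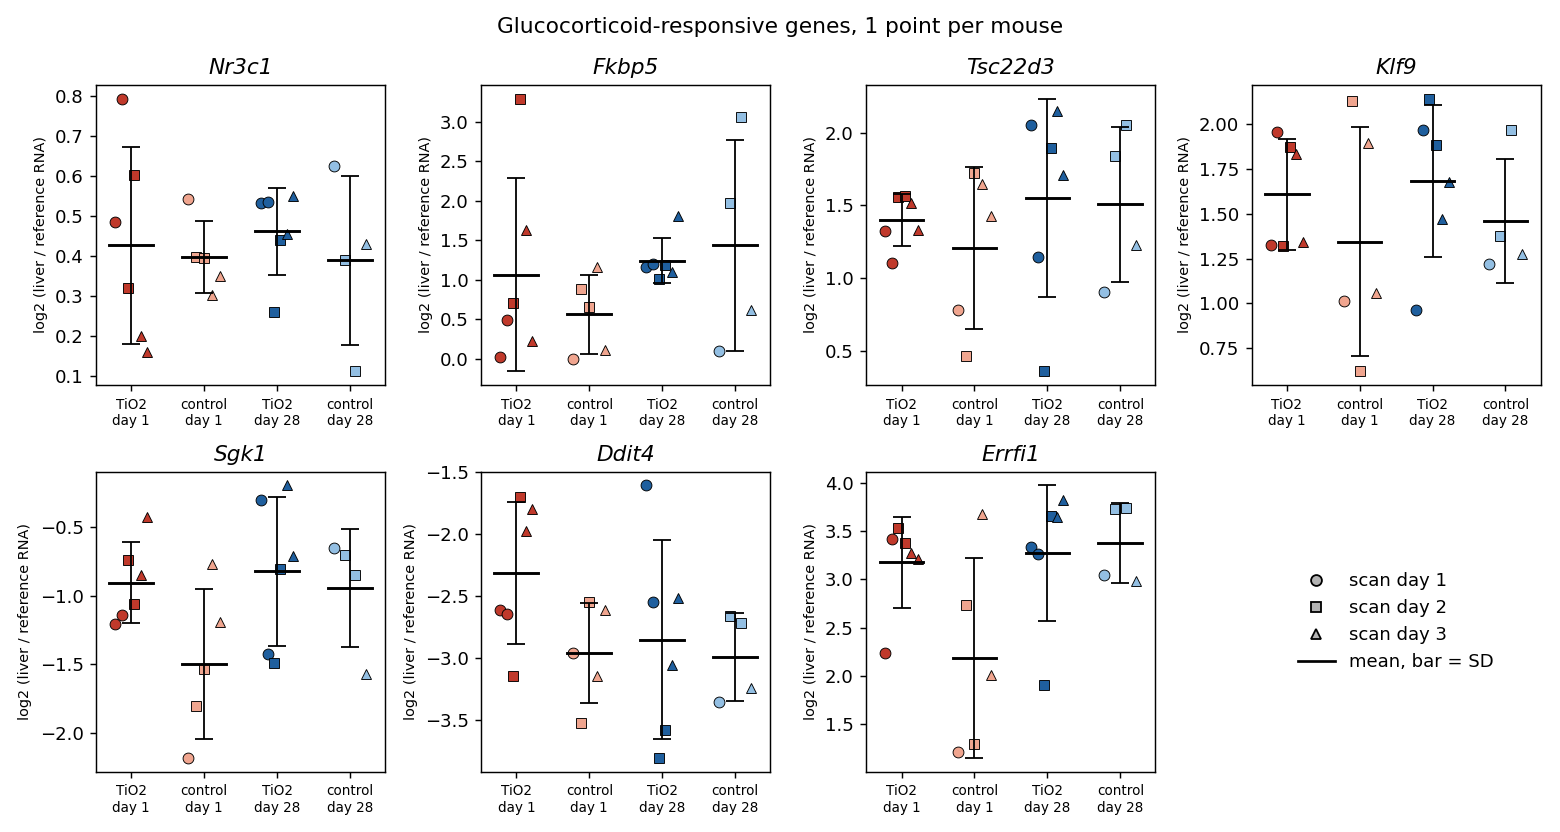
Log2 ratio of liver to reference RNA for the 7 measured genes in each of the 21 mice, by group, with TiO2 left of its vehicle control at each day. Points are mice, shapes are scan days, and the line and bar are the mean and SD of the group. Errfi1 averaged 3.18 in TiO2 livers and 2.19 in vehicle livers at day 1, and 3.27 and 3.37 at day 28.

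Nr3c1 encodes the glucocorticoid receptor. At day 1 its log2 ratio in TiO2 livers ran between 0.16 and 0.79 with a median of 0.40, against 0.54, 0.40, 0.40, 0.30 and 0.35 in the 5 vehicle livers. By day 28 TiO2 livers lay between 0.26 and 0.55 with a median of 0.49, against 0.62, 0.39, 0.11 and 0.43 in the 4 vehicle livers. At day 1 the TiO2 livers ran both below and above the vehicle range, with an SD of 0.25 against 0.09. At day 28 they lay inside the vehicle range. The difference was 0.03 ± 0.11 (SE) at day 1, with a 95% interval of -0.21 to 0.26, and 0.07 ± 0.12 at day 28, with an interval of -0.18 to 0.32. Its other probe past the filter, above background on 9 of 21 arrays, gave -0.07 ± 0.10 at day 1 and -0.03 ± 0.11 at day 28. The 2 probes had a correlation of -0.45 over the 21 arrays. Nr3c1 had the narrowest spread of the 7 genes, an SD of 0.16 over all arrays, and 40.9% of its variance lay between scan days against 1.54% between groups. With scan day as a block its day 1 difference was -0.0012.

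Fkbp5 encodes a co-chaperone that lowers the hormone affinity of the receptor and is itself induced by it. By its brightest probe, TiO2 livers at day 1 ran between 0.03 and 3.29 with a median of 0.61, against 0.0032, 0.88, 0.66, 1.17 and 0.11 in vehicle livers. At day 28 the TiO2 livers lay between 1.01 and 1.81 with a median of 1.17, against 0.11, 1.97, 3.06 and 0.62 in vehicle livers. The groups overlapped at both days, with the highest value in 1 TiO2 liver at day 1 and the next in 1 vehicle liver at day 28. In 2 mice, TiO2 day 1 replicate 1 and vehicle day 1 replicate 1, the signal was not well above background. The difference was 0.50 ± 0.50 at day 1 and -0.19 ± 0.54 at day 28. Without TiO2 day 1 replicate 4, the day 1 difference was 0.06. This probe was well above background on 19 of 21 arrays, and 26.2% of its variance lay between scan days.

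Its other probes showed none of that spread. The brightest probe spanned 3.29 log2 units over the 21 arrays, against 0.66 and 0.77 for the others, which were above background on 16 and 9 arrays. The correlations of the brightest probe with them were -0.31 and -0.43. At day 1 the other probes gave differences of -0.02 ± 0.13 and -0.11 ± 0.12. The probes of Fkbp5 therefore disagreed, and the mean over its probes gave 0.12 at day 1, whereas the scanner software's own ratio of the brightest probe gave 1.01.

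**Figure D2:**
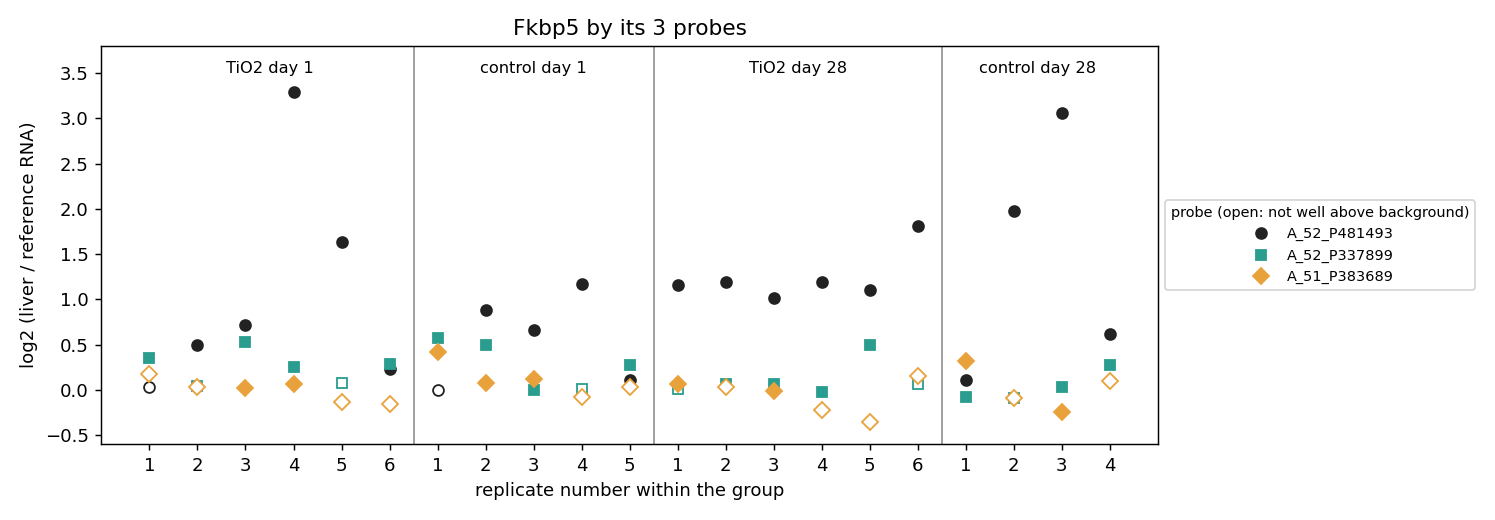
Log2 ratio of liver to reference RNA for the 3 probes of Fkbp5 in each of the 21 mice, in the order TiO2 and vehicle at day 1, then TiO2 and vehicle at day 28. Filled symbols mark liver signals well above background. The brightest probe reached 3.29 in 1 TiO2 liver at day 1 and 3.06 in 1 vehicle liver at day 28, where the other probes stayed near 0.

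Tsc22d3 encodes GILZ, a leucine zipper protein that mediates anti-inflammatory effects of glucocorticoids. On day 1 TiO2 livers ran between 1.10 and 1.56 with a median of 1.42, against 0.78, 0.46, 1.73, 1.65 and 1.42 in vehicle livers. TiO2 livers at day 28 lay between 0.36 and 2.15 with a median of 1.80, against 0.91, 1.84, 2.05 and 1.23 in vehicle livers. The TiO2 livers of day 1 lay inside the range of their controls, with an SD of 0.18 against 0.56. The difference was 0.19 ± 0.29 at day 1 and 0.04 ± 0.31 at day 28. Leaving out vehicle day 1 replicate 2, 1 or 3 gave 0.0062, 0.085 or 0.32 at day 1. Within scan days 1 to 3 the day 1 difference was 0.43, 0.47 and -0.11. Its other probe gave 0.22 ± 0.24 at day 1 and 0.07 ± 0.26 at day 28, and followed the first with a correlation of 0.75 over the 21 arrays.

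Klf9 encodes a zinc finger transcription factor that glucocorticoids and thyroid hormone induce. TiO2 livers at day 1 ran between 1.32 and 1.96 with a median of 1.59, against 1.01, 2.13, 0.62, 1.90 and 1.06 in vehicle livers. At day 28 the TiO2 livers lay between 0.96 and 2.14 with a median of 1.78, against 1.22, 1.38, 1.97 and 1.28 in vehicle livers. Vehicle livers of day 1 held both lower and higher values than any TiO2 liver of that day. The difference was 0.27 ± 0.25 at day 1 and 0.22 ± 0.27 at day 28. At day 1 it was 0.085 without vehicle day 1 replicate 3 and 0.46 without replicate 2 of that group, and single arrays left out at day 28 gave 0.13 to 0.39. Klf9 was the member whose day 28 difference stayed above 0 within each scan day, at 0.25, 0.34 and 0.30. The other probe gave 0.10 ± 0.29 at day 1 and 0.16 ± 0.31 at day 28, with a correlation of 0.48 between the probes.

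Sgk1 encodes a kinase downstream of insulin and growth factor signals whose transcription the receptor induces. TiO2 livers at day 1 ran between -1.21 and -0.43 with a median of -0.96, against -2.18, -1.80, -1.54, -0.77 and -1.19 in vehicle livers. By day 28 TiO2 livers lay between -1.49 and -0.20 with a median of -0.76, against -0.65, -0.71, -0.85 and -1.57 in vehicle livers. At day 1 the 6 TiO2 livers were all above the vehicle mean, yet the highest vehicle liver stood above most of them. The difference at day 1 was 0.59 ± 0.26, or 1.5-fold, with a 95% interval of 0.05 to 1.13, an unadjusted p of 0.0329 and an adjusted p of 1 in limma. With scan day as a block it was 0.62 ± 0.24, with an adjusted p of 0.992. Within scan days 1 to 3 it was 1.01 (against 1 vehicle mouse, the lowest of all 21), 0.77 and 0.34. At day 28 the difference was 0.12 ± 0.28.

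Ddit4 encodes REDD1, an inhibitor of the growth kinase complex mTORC1 that responds to hypoxia, fasting and glucocorticoids. On day 1 TiO2 livers ran between -3.15 and -1.70 with a median of -2.29, against -2.96, -3.53, -2.55, -3.15 and -2.61 in vehicle livers. On day 28 TiO2 livers lay between -3.81 and -1.61 with a median of -2.80, against -3.36, -2.66, -2.72 and -3.25 in vehicle livers. At day 1, 3 of the 6 TiO2 livers stood above every vehicle liver, and the rest lay among them. The difference was 0.65 ± 0.33 at day 1, with a 95% interval of -0.03 to 1.33 and an unadjusted p of 0.0611 (adjusted p of 1 in limma). Within scan days 1 to 3 it was 0.33, 0.61 and 0.99. At day 28 it was 0.14 ± 0.35, and the TiO2 livers held both the highest and the lowest value of the 21.

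Errfi1 encodes MIG6, an inhibitor of the epidermal growth factor receptor that is induced by growth factors and by glucocorticoids. TiO2 livers at day 1 ran between 2.24 and 3.53 with a median of 3.33, against 1.22, 2.74, 1.29, 3.68 and 2.01 in vehicle livers. TiO2 livers at day 28 lay between 1.90 and 3.82 with a median of 3.49, against 3.04, 3.73, 3.74 and 2.99 in vehicle livers. At day 1 the TiO2 livers clustered high apart from 1, while the vehicle livers were spread from the lowest value of all 21 to one above every TiO2 liver of that day. The difference at day 1 was 0.99 ± 0.39, or 1.99-fold, with a 95% interval of 0.18 to 1.80, an unadjusted p of 0.0186 and an adjusted p of 1 in limma. All 6 TiO2 livers were above the vehicle mean. With scan day as a block the difference was 1.05 ± 0.36, with an adjusted p of 0.992. Within scan days 1 to 3 it was 1.62 (against 1 vehicle mouse, the lowest of all 21), 1.44 and 0.40. At day 28 it was -0.10 ± 0.41.

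At day 28 the genes divided without a common direction. Of the 7 genes, 5 had a higher mean in TiO2 livers and 2, Errfi1 and Fkbp5, a lower one, with differences of -0.19 to 0.22 and a median of 0.07 (0.0021 over all features). Of all 17640 features, 8934 were higher. In limma 0 of 7 genes passed the adjusted threshold, as did 0 of 17640 features (0%). At an unadjusted p under 0.05 there were 0 of 7 genes, against 0.918% of features, and all 7 had overlapping groups, against 0.295% of features without overlap. The 95% intervals were wide for Ddit4, -0.58 to 0.87, and for Errfi1, -0.96 to 0.76.

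**Figure D3:**
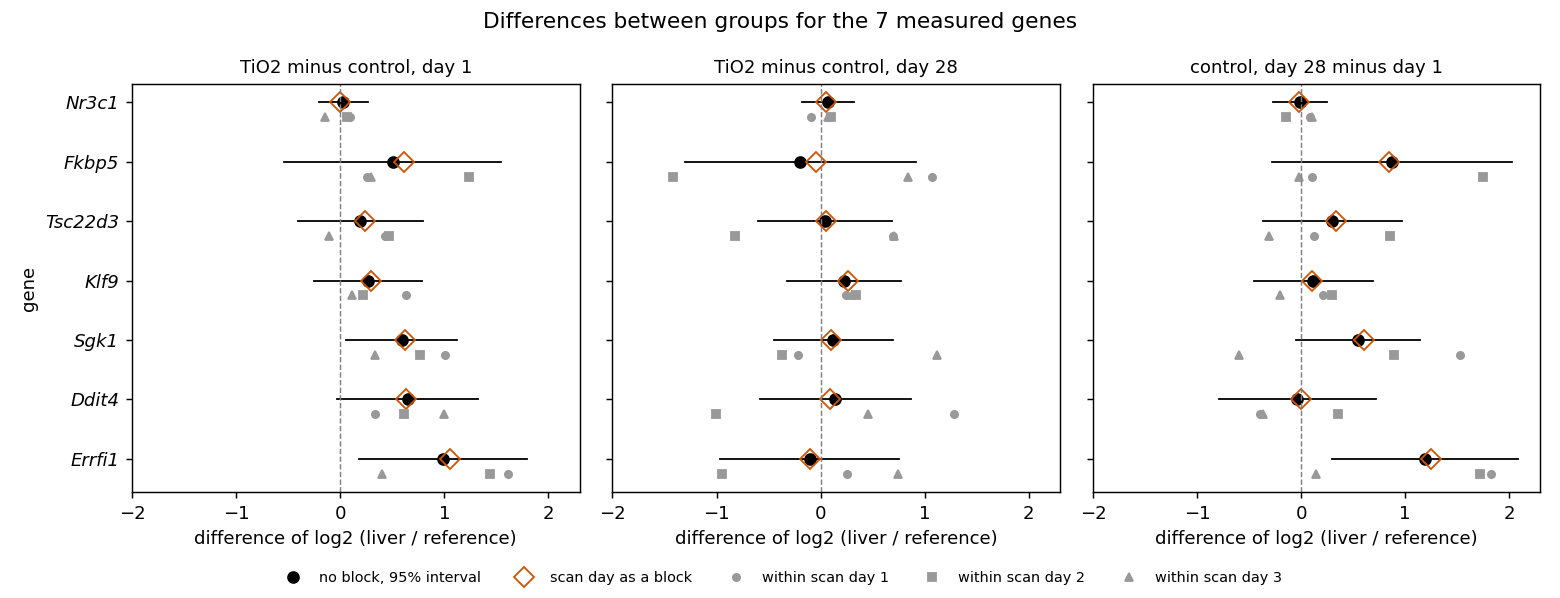
Differences of the log2 ratio for the 7 measured genes, TiO2 minus vehicle at day 1 (left) and day 28 (middle), and vehicle at day 28 minus vehicle at day 1 (right). Black points and lines are the limma estimate and its 95% interval, open diamonds the estimate with scan day as a block, and grey symbols the differences within each scan day. At day 1 the intervals of Errfi1 (0.18 to 1.80) and Sgk1 (0.05 to 1.13) lie above 0, and at day 28 all 7 intervals include 0.

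The change of the TiO2 difference between the days was tested as an interaction, day 28 minus day 1. It was negative for 6 of 7 genes and for 8699 of 17640 features, with a median over the genes of -0.47 (0.0026 over all features), and 0.04 ± 0.16 for Nr3c1. For Errfi1 it was -1.09 ± 0.57, with an unadjusted p of 0.0676, and for Fkbp5 -0.70 ± 0.73, or -0.16 without vehicle day 28 replicate 3 and -1.14 without vehicle day 28 replicate 1. For Ddit4 and Sgk1 it was -0.50 ± 0.48 and -0.47 ± 0.38. In limma 0 of 7 genes passed the adjusted threshold, as did 0 of 17640 features (0%), and at an unadjusted p under 0.05 there were 0 of 7 genes against 0.748% of features. With scan day as a block this was 1 of 7, Errfi1 at -1.15 ± 0.52 (unadjusted p of 0.039, adjusted p of 0.999). By the same rule 321 of 17640 features were higher and 202 lower.

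Between the days the vehicle livers also had different means, although no gene passed the test. Errfi1 was 1.19 ± 0.43 higher at day 28 than at day 1, or 2.28-fold, with an unadjusted p of 0.0116 and an adjusted p of 1 in limma. With scan day as a block it was 1.25 ± 0.40 (adjusted p of 0.501). Within scan days 1 to 3 it was 1.83 (1 mouse against 1), 1.72 and 0.14 (1 mouse at day 28). Fkbp5 by its brightest probe was 0.88 ± 0.56 higher, or 0.34 without vehicle day 28 replicate 3 and 1.32 without vehicle day 28 replicate 1, and Sgk1 0.55 ± 0.29 higher, whereas Ddit4 and Nr3c1 differed by -0.04 ± 0.36 and -0.01 ± 0.12. This comparison shares the vehicle mice of day 1 with the TiO2 comparison of that day, so low values among those 5 mice enter both. In limma 0 of 7 genes passed the adjusted threshold, as did 0 of 17640 features (0%). At an unadjusted p under 0.05 there was 1 of 7 genes, Errfi1, higher at day 28, against 3% of features in either direction, 1.8% higher and 1.2% lower, and all 7 had overlapping groups, against 0.692% of features without overlap. With scan day as a block in limma there were 2 of 7, Errfi1 and Sgk1 (unadjusted p of 0.00492 and 0.0312). By the same rule 688 of 17640 features were higher and 675 lower.

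Between TiO2 livers of both days the means of the genes other than Ddit4 lay close together. Ddit4 was 0.54 ± 0.31 lower at day 28 than at day 1, and the other 6 genes had differences of 0.04 to 0.18. In limma 0 of 7 genes passed the adjusted threshold against 0.034% of features, and 0 of 7 had an unadjusted p under 0.05 against 3.72% of features. In order of group means, Errfi1 ran from vehicle day 28, TiO2 day 28 and TiO2 day 1 down to vehicle day 1. Sgk1 ran from TiO2 day 28, TiO2 day 1 and vehicle day 28 down to vehicle day 1. Neighbouring group means in this order differed by less than the larger SD of the pair in all 7 genes, except vehicle day 28 over vehicle day 1 for Sgk1, where the difference of 0.55 was just above the larger SD of 0.54.

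Some mice stood at the ends of the ranking for several genes. Vehicle day 1 replicate 1 was the lowest of all 21 mice for Errfi1 and Sgk1 and the third lowest for Tsc22d3 and Klf9, but ranked 9 for Ddit4 and 17 for Nr3c1, and its Fkbp5 signal was not well above background. Replicate 4 of the same group ranked 18 of 21 for Errfi1, 16 for Klf9 and 14 for Sgk1, Tsc22d3 and Fkbp5. TiO2 day 28 replicate 3 was lowest for Ddit4 and Tsc22d3 and highest for Klf9. TiO2 day 28 replicate 6 lay above the median of all mice for every one of the 7 genes.

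**Figure D4:**
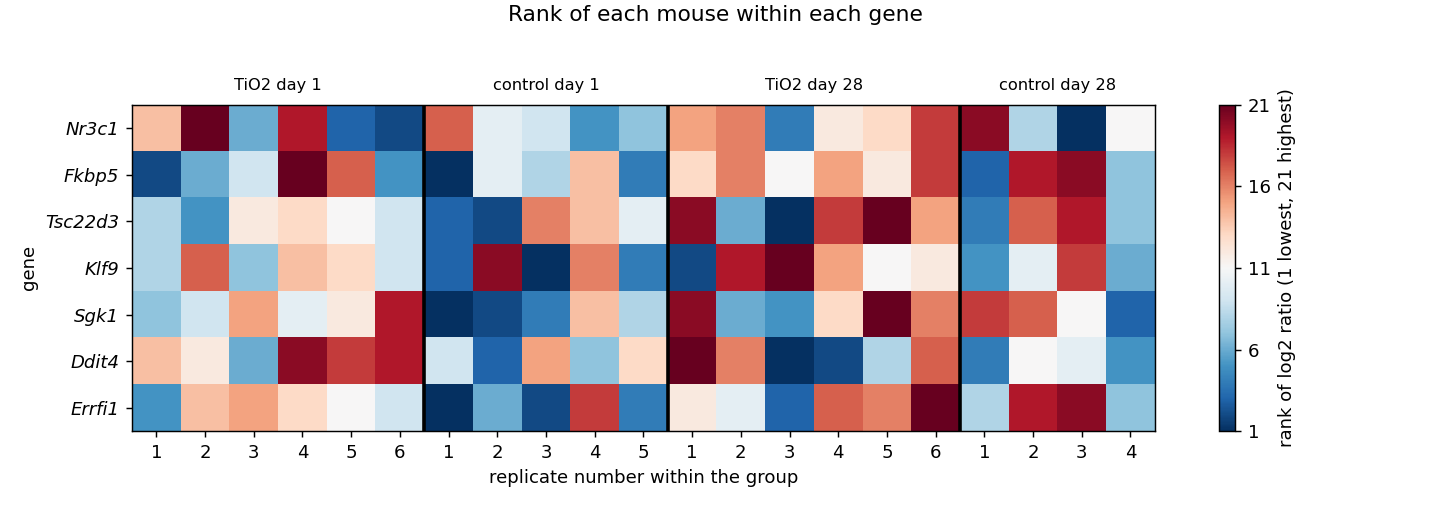
Rank of each of the 21 mice within each gene, from 1 (lowest log2 ratio, dark blue) to 21 (highest, dark red), with TiO2 left of vehicle at each day. Vehicle day 1 replicate 1 ranked 1 for Errfi1 and Sgk1. Ranks 1 and 2 of Fkbp5 are of signals not well above background and have no order. TiO2 day 28 replicate 3 ranked 1 for Ddit4 and Tsc22d3 and 21 for Klf9.

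Across the 21 arrays, with the mean of each scan day subtracted, several of the genes varied together. All such correlations are descriptions over mice of 4 groups that share arrays, dyes and 1 reference RNA. Errfi1 and Sgk1 had a Pearson correlation of 0.71, and 0.55 after the group means were also removed. Sgk1 and Tsc22d3 had 0.67, and 0.65 without group means. Errfi1 and Fkbp5, by its brightest probe, had 0.59, and 0.46 without group means. Klf9 had 0.47 with Errfi1 (Spearman 0.30), -0.02 with Sgk1 and -0.29 with Tsc22d3. Nr3c1 had correlations of -0.06 to 0.17 with the other 6 genes.

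**Figure D5:**
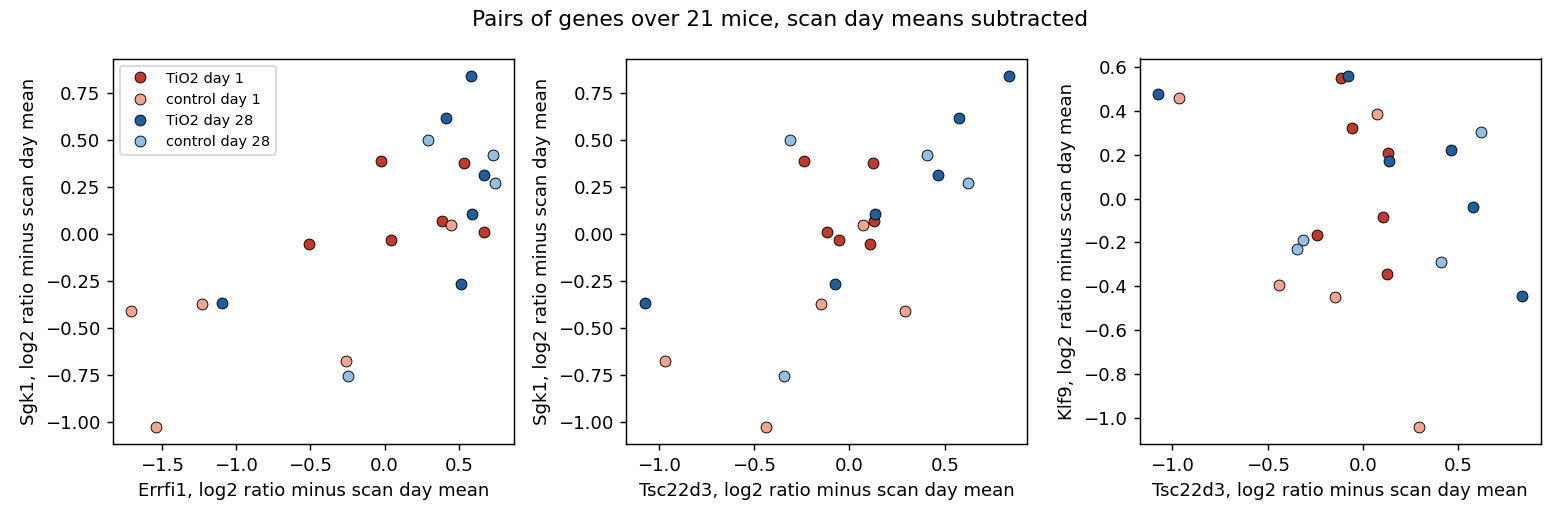
Pairs of genes in the 21 mice, each axis the log2 ratio minus the mean of its scan day, coloured by group. Errfi1 and Sgk1 (left, r = 0.71) and Tsc22d3 and Sgk1 (middle, r = 0.67) vary together, while Tsc22d3 and Klf9 (right, r = -0.29) do not. The single lowest values of Errfi1 (-1.7) and of Sgk1 (-1.03) are of vehicle mice of day 1, and the next lowest Sgk1 (-0.75) is of a vehicle mouse of day 28.

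The genes most like each of the 7 were sought among 11101 named genes over the same 21 arrays. Closest to Errfi1 were Cebpb (0.85), a liver transcription factor, and Mfsd2a (0.84), a lipid transporter, which was also close to Sgk1 (0.85) beside Tob1 (0.87). Tsc22d3 was closest to Tedc2 (0.93) and Noct (0.86), and Ddit4 to Dusp10 (0.71) and Inppl1 (0.70). For Klf9 they were Serpinb9 (0.80) and Fnip1 (0.80), for Fkbp5 1810055G02Rik and Arrdc2 (both 0.78), and for Nr3c1 Rce1 (0.70) and Nedd8 (0.69). Cebpb, itself a glucocorticoid-induced gene, averaged 0.49 ± 0.35 (SD, n = 6) in TiO2 livers and -0.23 ± 0.86 (n = 5) in vehicle livers at day 1. The lowest Cebpb value of all mice, -1.38, was in vehicle day 1 replicate 1, the mouse with the lowest Errfi1. Cebpb was picked for its match to Errfi1 over these same arrays, so a shared pattern follows from the choice and is no separate support.

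Genes of hormone supply and turnover, of the receptor's chaperone complex and of its partners in transcription showed no common direction at day 1. The list mixes genes of unlike function, so its counts of higher and lower genes have no single reading. Of 16 such genes 14 were measured, 9 higher and 5 lower in TiO2 livers, with a median difference of 0.04, and 0 passed the adjusted threshold. Hsd11b1, the enzyme that regenerates active glucocorticoid in liver, had a level of 7.01 ± 0.35 (SD, n = 6) in TiO2 livers and 7.39 ± 0.17 (n = 5) in vehicle livers, a difference of -0.38 ± 0.18 (SE) with an unadjusted p of 0.049 (adjusted p of 1 in limma). The chaperone genes Hsp90aa1 and Ptges3 differed by 0.38 ± 0.27 and 0.26 ± 0.17. At day 28 the 14 genes again had 9 higher and 5 lower, a median of 0.03 and no call in limma, and the largest differences were 0.25 ± 0.32 for Hsp90aa1, 0.22 ± 0.29 for the steroid reductase Srd5a1 and 0.18 ± 0.19 for H6pd, which feeds cofactor to Hsd11b1.

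Other glucocorticoid-induced liver genes gave 16 higher and 6 lower of 22 measured at day 1, with a median of 0.24 and 0 calls at the adjusted threshold. Lcn2, which encodes lipocalin-2, averaged 1.86 ± 0.85 in TiO2 livers and 0.38 ± 0.17 in vehicle livers, a difference of 1.48 ± 0.27 with an adjusted p of 0.286 in limma. It passed the threshold with slide as a random block (adjusted p of 0.00643) and without TiO2 day 1 replicate 2 (1.74, adjusted p of 0.00038). That mouse, at 0.53, lay within the 0.16 to 0.54 of the vehicle livers, so leaving it out raises the difference. Under every other alternative Lcn2 did not pass at day 1, with an adjusted p in limma of 0.0847 without scan day 1 and 0.999 without scan day 2. Bcl6, a transcriptional repressor, differed by -1.18 ± 0.60, and Lpin1, a phosphatidate phosphatase of fasting liver, by 0.73 ± 0.60. At day 28, 13 were higher and 9 lower with a median of 0.08 and no call, and the metallothionein genes Mt2 and Mt1 differed by -0.83 ± 0.64 and -0.49 ± 0.38, and Lcn2 by 0.37 ± 0.28. Lcn2 fell by 1.77 ± 0.25 in TiO2 livers at day 28 relative to day 1, with an adjusted p of 0.00615 in limma. In vehicle livers Lcn2 was also lower at day 28, at -0.28 ± 0.13 against 0.38 ± 0.17 (SD). These vehicle groups did not overlap, as for 0.692% of features, and the difference did not pass the adjusted threshold in limma. Lcn2 was the 1 gene of these 2 lists that passed in any of the 5 comparisons, and it is also on the acute phase list given below. The adjusted p of its fall in TiO2 livers was 0.648 without scan day 2, 0.549 without scan day 3 and 0.117 in a fit to these 2 groups alone. With scan day as a block, 3 of 17 acute phase genes passed in limma between TiO2 livers of both days, as did 19 of 17640 features.

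A further 3 lists are given beside these genes, and their part in the result was not tested. Of all 17640 features, 8430 were higher in TiO2 livers at day 1 and 8934 at day 28. Acute phase genes had 15 of 17 higher in TiO2 livers at day 1, with a median of 0.35, led by Saa3 at 2.41 ± 0.50 and Saa1 at 1.77 ± 0.39. At day 28, 10 of 17 were higher, with a median of 0.04, led by Apcs at 0.53 ± 0.18. Immediate early genes, which rise within minutes of a stimulus, had 11 of 15 higher at day 1, with a median of 0.13, led by Nr4a1 at 1.14 ± 0.37 and Egr1 at 0.81 ± 0.64. Ier3 at 0.47 ± 0.51 and Jun at 0.26 ± 0.26 led at day 28, when 13 of 15 were higher. Clock genes had 6 of 11 higher at day 1, with a median of 0.03, and Dbp and Nr1d1, which cycle over the day, differed by -0.71 ± 0.54 and -0.30 ± 0.32. At day 28, 5 of 11 clock genes were higher, with Dbp at -0.50 ± 0.58 and Tef at -0.45 ± 0.30. None of the differences named in this paragraph passed the adjusted threshold of limma. Kupffer cell and macrophage markers had 8 of 10 higher at day 1, with a median of 0.10, and hepatocyte markers 2 of 11, with a median of -0.12. At day 28, 10 of 10 Kupffer cell and macrophage markers were higher, with a median of 0.16, and 7 of 11 hepatocyte markers, with a median of 0.0021. With scan day as a block in limma, 1 of the 10 Kupffer cell and macrophage markers at day 1 and 3 at day 28 were higher at an unadjusted p under 0.05. Of all 17640 features, 387 at day 1 and 251 at day 28 were higher by the same rule. At either day 0 of the 10 markers passed the adjusted threshold.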

How the data were processed

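Liver RNA of 21 mice was hybridised with a common reference RNA on Agilent arrays of 2 colours, with no dye swap, per the labels. The spot and background values used are intensity, as deposited and not normalized per the file headers. The deposited LogRatio is the log10 of processed red over green signal of each spot, background-subtracted and dye-normalized per the file headers, and was exactly 0 for 13.1 to 26.1% of probes per array. The authors' deposited value table holds log2 values with no statement of how they were scaled, centred or directed. Set against red-over-green log2 ratios from spots with background left in, each column correlated at 0.9957 to 0.9971, slopes of 0.991 to 0.993 and medians of -0.058 to -0.011, and its scale and direction were taken from this match. File headers name Feature Extraction 10.7.3.1 and the submitters' processing notes version 9.5.3.1. No source used here gives the authors' filters or tests.

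The planned mean spot signal was absent from the columns, so medians were used. Background was corrected in limma 3.58.1 (R 4.3.3) by normexp with an offset of 50, after spots marked as deviant by the scanner software (72 to 324 per array) had been given the array's median background, and loess followed within each array, with control and marked spots at weight 0. After that, marked spots were dropped, saturated ones stayed, and repeated spots were averaged by probe. A probe entered the test if its red signal was well above background on 50% or more of some group's arrays (21405 probes). Symbols came from accessions through a RefSeq table of GRCm38.p6 (23374 probes named, 17800 not). The headers name the older build mm8, so probes are given no coordinates. The representative probe of a gene left 17640 features, 11255 of them named genes.

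Groups came from the treatment and time labels, and replicate numbers follow the order of deposition. The 5 comparisons were contrasts of 4 group means in 1 limma model over all 21 arrays, adjusted by Benjamini-Hochberg over all features with a threshold of 0.05. The number of arrays limits the precision. The headers give 3 scan days and 9 slides, which were tried as blocks. Named were the 7 measured members in every comparison, of 2 lists of glucocorticoid genes those passing the threshold and the 3 largest differences in each TiO2 comparison, of the clock, immediate early and acute phase lists the 2 largest, and for each member the 2 genes most like it. The members and lists were chosen with earlier results of these data known. The fit was tested on simulated data with known changes, whose noise was drawn independently for each array, without scan day or slide. Such data cannot show how the fit behaves under the slide correlation of 0.49 in these arrays.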

Additional observations from a re-analysis of the deposited data

Results flagged for a closer look

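In 28 groups of values (7 genes in 4 groups) a single mouse was set against the rest of its group by Dixon's test, which by chance picks out about 5% of groups, and 3 mice stood apart. Errfi1 was 2.241 in TiO2 day 1 replicate 1, below the 3.21 to 3.53 of the other 5 mice. Errfi1 was 1.901 in TiO2 day 28 replicate 3, below the 3.27 to 3.82 of the other 5 mice. Fkbp5, by its brightest probe, was 1.814 in TiO2 day 28 replicate 6, above the 1.01 to 1.20 of the other 5 mice.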

How the results depend on the processing

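No gene of the 7 passed an adjusted p of 0.05 under any alternative. The alternatives gave 553 values with a test for these genes, of which 511 kept their direction. Leaving out each array of the groups compared in turn gave 441, of which 395 did. Some of the 553 could not turn. A changed filter or a fit to the compared groups alone left the same probes and group means. Scan day as a block left TiO2 at day 28 minus day 1 unchanged. The mean over probes left Errfi1, Ddit4 and Sgk1 unchanged, each with 1 probe. At day 1, TiO2 minus vehicle kept its sign in all 16 alternatives, some of which could not turn it, for the 6 genes other than Nr3c1. It ran from 0.73 to 1.40 for Errfi1, 0.47 to 0.80 for Sgk1, 0.49 to 0.80 for Ddit4 and 0.12 to 1.01 for Fkbp5. The lowest adjusted p of Errfi1 there was 0.771, with slide as a random block. With slide as a random block (consensus correlation 0.49) limma called 3 features in the day 1 comparison and, without TiO2 day 1 replicate 2, also 3, in place of 0. Leaving out single arrays gave 0 to 3 calls there, 0 to 1 between vehicle livers of day 28 and day 1 (1 without vehicle day 1 replicate 4) and 5 to 9 between TiO2 livers of day 28 and day 1. In this last comparison, with 6 calls, there were 3 with an offset of 10, 1 with the scanner software's ratios, 2 with scaling between arrays, 19 with scan day as a block, 31 with slide as a random block, and 1, 0 and 0 without scan day 1, 2 and 3.

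Signs turned as follows, and the causes were not tested. For TiO2 minus vehicle at day 1, Nr3c1 was -0.0021 with the scanner software's ratios, -0.021 as the mean over probes, -0.0012 with scan day as a block, -0.0058 with slide as a random block and -0.041 without scan day 1. For TiO2 minus vehicle at day 28, without scan day 1 Ddit4 was -0.37 and Tsc22d3 -0.18, without scan day 2 Errfi1 was 0.50, Fkbp5 0.95 and Nr3c1 -0.0096, and without scan day 3 Sgk1 was -0.27 and Tsc22d3 -0.24. For the change of the TiO2 difference, without scan day 2 Ddit4 was 0.22, Tsc22d3 0.66, Fkbp5 0.78 and Nr3c1 -0.021, without scan day 1 Klf9 was 0.088, and without scan day 3 Nr3c1 was -0.038. The mean over probes gave 0.014 for Klf9, the authors' deposited table -0.00498 and the liver channel alone -0.015 for Nr3c1. For vehicle at day 28 minus day 1, without scan day 2 Tsc22d3 was -0.22, Fkbp5 -0.064, Klf9 -0.075 and Nr3c1 0.13, Ddit4 was 0.085 without scan day 1 and 0.10 without scan day 3, and Nr3c1 was 0.000174 with an offset of 10 and 0.051 in the liver channel alone. For TiO2 at day 28 minus day 1, without scan day 1 Errfi1 was -0.090, Sgk1 -0.032 and Fkbp5 -0.19, without scan day 2 Klf9 was -0.094, and without scan day 3 Errfi1 was -0.10, Tsc22d3 -0.024 and Nr3c1 -0.11. There the mean over probes gave -0.023 for Tsc22d3 and -0.00656 for Fkbp5, slide as a random block -0.025 for Fkbp5, and Nr3c1 was -0.035 with no background subtraction, -0.000212 with the scanner software's ratios and -0.031 in the authors' deposited table.

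Leaving out single arrays turned signs within these ranges. For TiO2 minus vehicle at day 1, Nr3c1 ran from -0.045 to 0.082. For TiO2 minus vehicle at day 28, Errfi1 ran from -0.23 to 0.17, Ddit4 from -0.11 to 0.33, Sgk1 from -0.087 to 0.25, Tsc22d3 from -0.16 to 0.28, Fkbp5 from -0.64 to 0.35 and Nr3c1 from -0.020 to 0.15. For the change of the TiO2 difference, Tsc22d3 ran from -0.35 to 0.090, Klf9 from -0.24 to 0.14 and Nr3c1 from -0.048 to 0.12. For vehicle at day 28 minus day 1, Ddit4 ran from -0.18 to 0.085, Klf9 from -0.064 to 0.31 and Nr3c1 from -0.087 to 0.084. For TiO2 at day 28 minus day 1, Errfi1 ran from -0.091 to 0.37, Sgk1 from -0.043 to 0.21, Fkbp5 from -0.029 to 0.62, Klf9 from -0.015 to 0.22 and Nr3c1 from -0.018 to 0.11. For TiO2 minus vehicle at day 1, Errfi1 ran from 0.75 to 1.36, Sgk1 from 0.42 to 0.77 and Ddit4 from 0.50 to 0.81, all above 0. For vehicle at day 28 minus day 1, Errfi1 ran from 0.95 to 1.56 and Sgk1 from 0.38 to 0.76, also above 0. Further ranges kept their sign but had an end that differed by a factor over 1.5 from the value with all 21 arrays. For TiO2 minus vehicle at day 1 these were 0.0062 to 0.32 for Tsc22d3, 0.058 to 0.71 for Fkbp5 and 0.085 to 0.46 for Klf9, and at day 28 0.13 to 0.39 for Klf9. For the change of the TiO2 difference they were -1.14 to -0.16 for Fkbp5, -0.75 to -0.31 for Ddit4 and -0.68 to -0.30 for Sgk1. For vehicle at day 28 minus day 1 they were 0.34 to 1.32 for Fkbp5 and 0.11 to 0.50 for Tsc22d3, and for TiO2 at day 28 minus day 1 -0.79 to -0.35 for Ddit4 and 0.032 to 0.39 for Tsc22d3. Leaving out spots of outlying local background was an alternative chosen after seeing the data. The fit to the compared groups alone could not be made for the change of the TiO2 difference, which uses all 4 groups. No paired analysis was possible because the labels number no replicates across the groups and a number in the order of deposition pairs no animals.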
